A study of Mus musculus with 4 samples.

Results

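The neurotrophins and their receptors were examined through 6 genes in mouse eyes taken at midday with or without light on that morning. The genes were *Ngfr*, *Bdnf*, *Ntf3*, *Ntrk2*, *Ntrk3* and *Sort1*, which were selected by symbol from a table of 22863 genes, and each symbol matched a single row. The 6 genes were proposed with the difference between the conditions already known, so their values by condition are given as a description and without a test.

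The data were RNA-seq of poly-A RNA from 4 samples of C3H mice, 2 in subjective day and 2 in objective day. The strain, C3H/f+/+, makes melatonin and lacks the *Pde6b* mutation by which other C3H mice lose their photoreceptors. Eyes were taken at hour 6 of the day, in subjective day after 18 hours in darkness and in objective day after a morning of light and 1 hour in darkness (samples with morning light), although a longer dark time for subjective day is also given in the source. Each sample pooled the 4 eyes of a female and a male mouse, without the front of the eye and the lens, so that sclera, choroid, RPE (the retinal pigmented epithelium) and retina were measured together.

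Neurotrophins are secreted growth factors that keep neurons alive and shape their connections. Each is made as a proneurotrophin and then cut to its mature form, which binds a Trk receptor tyrosine kinase, while the p75 receptor binds all of them and, together with sortilin, binds the uncut proforms. In the retina, BDNF and its receptor TrkB are best known for supporting retinal ganglion cells, and p75 is known from Müller glia and from Schwann cells of peripheral nerves.

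The values are adjusted counts, that is, read counts per gene that the authors brought to a common library size. They summed to between 33278417 and 35236783 per sample, which follows from the adjustment and is not the sequencing depth. Relative depth was estimated roughly, from the median of a narrow range of low values in each sample. It lay between 89.1% and 107% of the mean of the 4 samples. The rod markers were the most abundant of 12 cell type marker lists, and the RPE marker *Rpe65* was at 5121 or more in every sample. *Best1*, another RPE marker, was near the bottom of the range, from 0 to 9.70. Although the lens was removed, the lens list, mostly crystallins, was detected and differed more within a condition than between conditions, with sums of 49360 and 5901 in subjective day, against 55540 and 14025 with morning light. Across 17784 genes tested, the log2 values of the replicates had a Pearson correlation of 0.991 in subjective day and 0.993 in objective day.

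The promoter windows of *Ngfr*, *Ntrk2* and *Bdnf* are shown because *Ngfr* was the member that differed most between the conditions, *Ntrk2* the member that differed least, and *Bdnf* the ligand best known to be induced by neuronal activity. Each window runs from 250 bases before to 50 bases after an annotated transcription start, 5′ to 3′ on the strand of the gene, and is from RefSeq on GRCm38.p6. RefSeq windows matched 4 of the 6 genes, with 11 windows in all, of which 7 belong to *Bdnf*, and *Ntrk3* and *Sort1* had no match. Capitals mark matches on either strand to the motifs searched, which were the cyclic AMP response element TGACGTCA and its core TGACGT, the Egr motifs GCGTGGGCG and GCGGGGGCG, the E-box CACGTG, the AP-1 motif TGANTCA and the GC box GGGCGG. A core match lies inside every full TGACGTCA.
Ngfr, chr11:95587649-95587948, minus strand: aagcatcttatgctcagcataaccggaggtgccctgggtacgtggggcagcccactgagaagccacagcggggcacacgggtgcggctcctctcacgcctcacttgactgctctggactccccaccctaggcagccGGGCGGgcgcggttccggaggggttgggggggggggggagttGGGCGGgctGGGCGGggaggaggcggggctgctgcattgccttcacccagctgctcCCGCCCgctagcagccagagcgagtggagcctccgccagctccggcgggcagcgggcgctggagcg
Ntrk2, chr13:58806319-58806618, plus strand: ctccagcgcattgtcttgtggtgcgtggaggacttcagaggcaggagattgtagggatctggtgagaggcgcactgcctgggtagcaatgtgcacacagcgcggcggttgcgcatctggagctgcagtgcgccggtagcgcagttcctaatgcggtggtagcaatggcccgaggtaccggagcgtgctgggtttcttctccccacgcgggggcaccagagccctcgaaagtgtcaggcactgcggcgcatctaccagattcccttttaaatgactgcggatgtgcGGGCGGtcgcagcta
Bdnf, the third of its windows by position, chr2:109692186-109692485, plus strand: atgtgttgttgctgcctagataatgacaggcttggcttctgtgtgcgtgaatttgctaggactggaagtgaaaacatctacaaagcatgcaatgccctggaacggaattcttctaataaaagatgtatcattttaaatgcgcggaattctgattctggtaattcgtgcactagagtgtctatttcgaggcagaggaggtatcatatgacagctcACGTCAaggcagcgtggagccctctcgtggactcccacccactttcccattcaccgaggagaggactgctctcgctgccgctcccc

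The *Ngfr* window held 4 GC boxes and none of the other motifs, and its GC content was 71.7%. The *Ntrk2* window held 1 GC box, with a GC content of 61.3%. The printed *Bdnf* window held 1 match to the core TGACGT, on the strand opposite to the gene, and had a GC content of 48.7%. Of all 32851 RefSeq windows of this length, 35.7% held a GC box, 7.51% the core TGACGT, 1.79% the full element, 2.91% the Egr motif GCGGGGGCG and 0.612% the Egr motif GCGTGGGCG. The E-box was in 7.15% of them and the AP-1 motif in 7.81%. The core TGACGT was added to the search, and the printed *Bdnf* window picked for its match, after the *Bdnf* windows had been seen. These matches describe the letters in the windows, and the absence of a match says only that those letters are not there.

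*Ngfr* encodes p75, the receptor shared by all neurotrophins. Its adjusted count was 1032 and 986 in the subjective day samples and 1641 and 1542 in the objective day samples. The conditions did not overlap, and the lower of the objective day samples was 0.58 above the higher of the subjective day samples on the log2 scale. From a subjective day mean of 1009 ± 32.7 (SD, n = 2), the level in objective day was 57.7% higher, at 1592 ± 70.1 (SD, n = 2). On the log2 scale the difference was 0.66, compared with gaps between replicates of 0.066 in subjective day and 0.090 in objective day. It was 0.67 between the samples numbered 1 and 0.64 between the samples numbered 2, and from 0.61 to 0.70 with each sample left out in turn. From highest to lowest log2 difference, *Ngfr* ranked 205th of the 17784 genes tested.

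**Figure D1:**
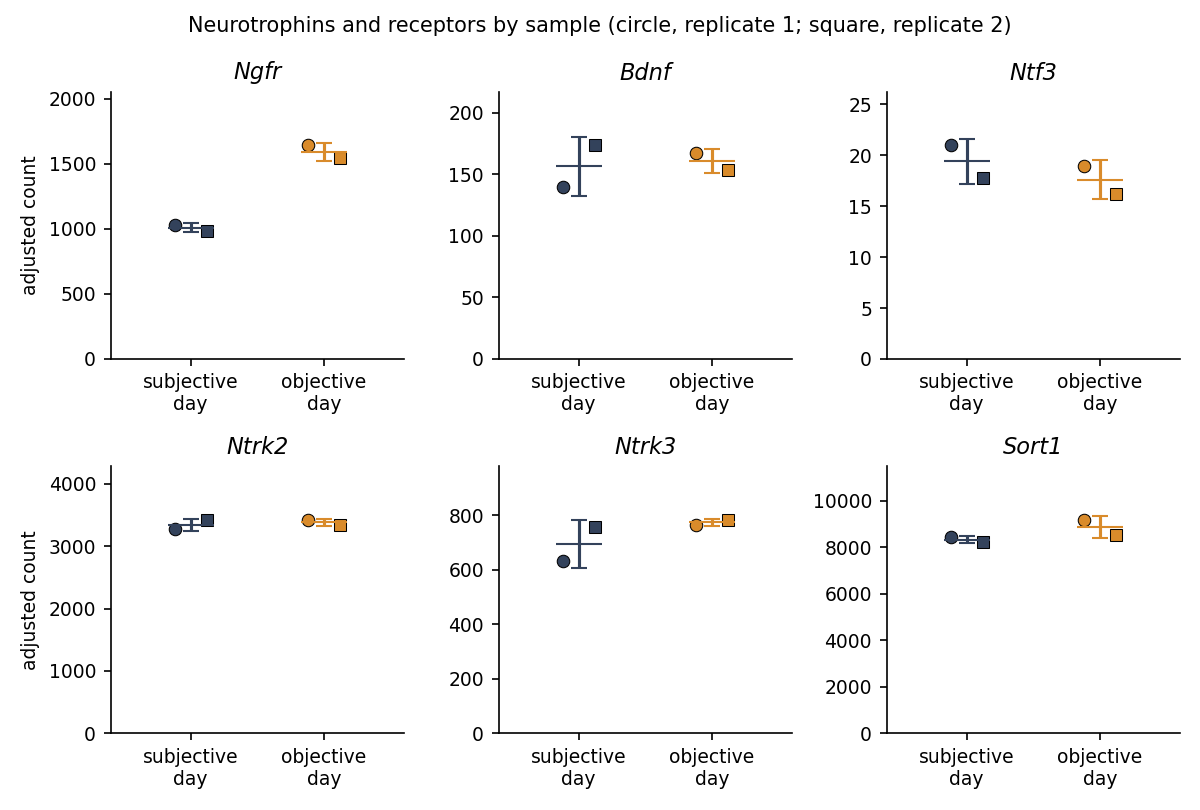
Adjusted count of each of the 6 genes in the 2 subjective day samples (dark blue) and the 2 objective day samples (orange), with circles for replicate 1, squares for replicate 2, and a horizontal bar with error bars for the mean ± SD (n = 2). The *Ngfr* samples of objective day, at 1641 and 1542, stand well above those of subjective day, at 1032 and 986, while the group means of the other 5 genes differ by at most 11.4%.

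*Bdnf* and *Ntf3* encode the ligands BDNF and neurotrophin 3. *Bdnf* stood at adjusted counts of 140 and 174 in subjective day, against 167 and 154 with morning light. The conditions overlapped, with both objective day samples between the subjective day samples. Its mean was 157 ± 23.9 (SD, n = 2) and 161 ± 9.58 (SD, n = 2), a log2 difference of 0.043 beside a gap of 0.31 between the subjective day replicates. With single samples left out the log2 difference ran from -0.11 to 0.20, so its sign rested on which sample was kept. *Bdnf* was higher in objective day between the samples numbered 1 (log2 difference 0.26) and lower between those numbered 2 (-0.17). *Ntf3* was the weakest of the 6, at 21.0 and 17.8 in subjective day, against 18.9 and 16.2 with morning light. These conditions overlapped as well, and its log2 difference of -0.13 was smaller than the gap between replicates within either condition (0.22 and 0.21). The log2 difference of *Ntf3* was -0.14 between the samples numbered 1 and -0.13 between those numbered 2, and ran from -0.25 to -0.022 with single samples left out.

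The Trk receptors differed less between the conditions than *Ngfr*. *Ntrk2*, which encodes the BDNF receptor TrkB, had adjusted counts of 3270 and 3415 in subjective day, against 3427 and 3341 with morning light. Its means were 3342 ± 102 and 3384 ± 61.0 (SD, n = 2 each), a log2 difference of 0.018, and the conditions overlapped. *Ntrk3*, which encodes the neurotrophin 3 receptor TrkC, was at 632 and 757 in subjective day, against 765 and 783 with morning light. The conditions did not overlap, but the gap between them was only 0.014 on the log2 scale, and the log2 difference of 0.16 was smaller than the gap of 0.26 between the subjective day replicates. Without the first subjective day sample that difference was 0.03. *Ntrk2* and *Ntrk3* are both known to make full-length and truncated receptors, which a value per gene adds together.

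*Sort1* encodes sortilin, the partner of p75 for proneurotrophins. Its adjusted counts were 8439 and 8232 in subjective day, against 9194 and 8535 with morning light. The conditions did not overlap, with the lowest objective day sample 0.016 above the highest subjective day sample on the log2 scale. Its means were 8336 ± 146 and 8864 ± 466 (SD, n = 2 each), a log2 difference of 0.088, which was smaller than the gap of 0.11 between the objective day replicates. In all, 3 of the 6 genes had conditions that did not overlap, each higher in objective day. Over all genes tested, 56.1% did not overlap, 27.9% being higher and 28.2% lower in objective day, so this count is close to the background.

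Ratios within a sample do not depend on how libraries were scaled, but can depend on GC content. The ratio of *Ngfr* to *Ntrk2* was 0.316 and 0.289 in subjective day, against 0.479 and 0.462 with morning light. The ratio to *Sort1* was 0.122 and 0.120 in subjective day, against 0.179 and 0.181 with morning light. Against each of the other 5 members the ratio was higher in both objective day samples than in both subjective day samples, by 0.50 (against *Ntrk3*) to 0.80 (against *Ntf3*) on the log2 scale. All 5 ratios share *Ngfr* as numerator, so they restate its difference and are not 5 separate results. How often ratios of other genes do not overlap was not computed. With each sample's trend over GC content removed, as described further on, the ratio to *Bdnf* overlapped between the conditions, and its log2 difference went from 0.61 to 0.13. The ratio to *Ntrk3* then differed by 0.18, while the ratios to *Ntrk2*, *Sort1* and *Ntf3* differed by 0.50, 0.50 and 0.67, and these 4 did not overlap. Among the other members, the ratio of *Bdnf* to *Ntrk2* was between 0.0427 and 0.0508 and that of *Sort1* to *Ntrk2* between 2.41 and 2.68, and in both the conditions overlapped. The ratio of *Ntrk3* to *Ntrk2* did not overlap, at 0.193 and 0.222 in subjective day, against 0.223 and 0.234 with morning light, although only narrowly.

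To order the genes by level, adjusted counts were divided by the length of all annotated exons of the gene, and the order was repeated with the length of the longest transcript. *Sort1* was highest, at 1136 ± 54.9 adjusted counts per kb of exon (SD over the 4 samples). *Ngfr* followed at 377 ± 98.4, its SD including the difference between the conditions. *Ntrk2* was next at 174 ± 3.77, but at 385 ± 8.32 per kb of its longest transcript, which is within the spread of *Ngfr*, so the order of these receptors depends on the length used. *Bdnf*, at 25.5 ± 2.42 per kb of exon, and *Ntrk3*, at 24.3 ± 2.29, did not differ beyond their spread. *Ntf3* was lowest of the 6 at 10.8 ± 1.16 per kb of exon, below *Bdnf* and *Ntrk3* in every sample. *Ntf5*, which is not one of the 6 and encodes another TrkB ligand, was lower still at 5.02 ± 1.12.

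**Figure D2:**
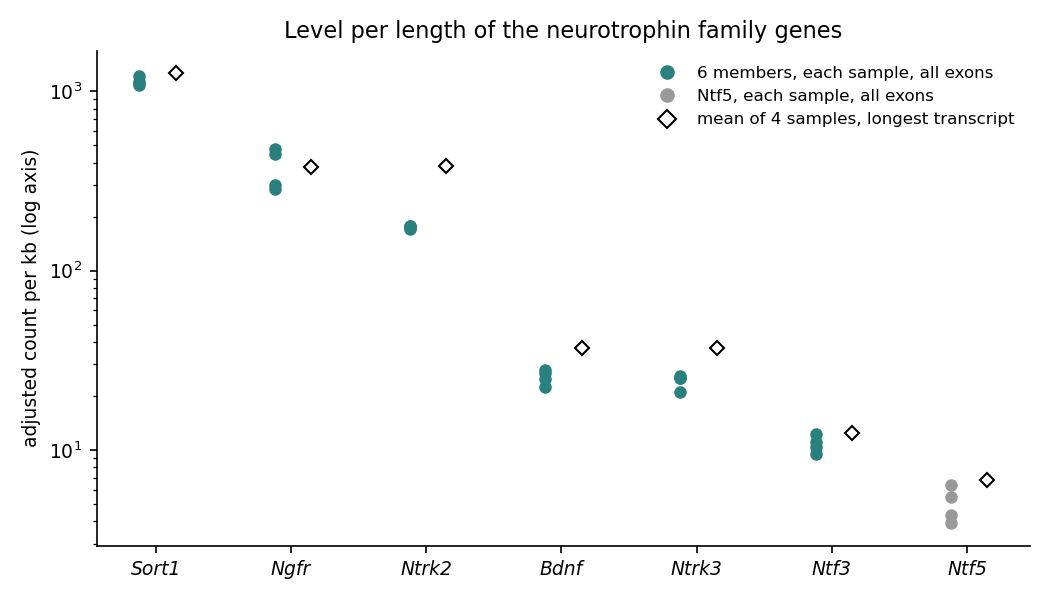
Adjusted count per kb (log axis) for the 6 members (teal) and *Ntf5* (grey), with a point per sample for all exons and an open diamond for the mean over 4 samples with the longest transcript as length. *Sort1* is highest with either length, and the *Ntrk2* diamond, at 385, reaches the level of *Ngfr* (377).

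The genes are given with their positions on GRCm38 in the GENCODE M21 annotation. *Ngfr* (ENSMUSG00000000120, minus strand) spans chromosome 11 from 95568818 to 95587735 with no overlapping annotated gene. *Bdnf* (ENSMUSG00000048482, plus strand) spans chromosome 2 from 109674700 to 109727007, and the antisense gene *Gm45346* shares 896 exonic bases with it. *Sort1* (ENSMUSG00000068747, plus strand) spans chromosome 3 from 108284082 to 108361511 and shares 338 exonic bases with the antisense gene *Gm12523*, whose adjusted counts were between 1.20 and 4.99. The strand setting of the counting is not given in the sources used here, so without it reads of *Bdnf* and *Sort1* and of these partners cannot be told apart. *Ntf3* (ENSMUSG00000049107), on chromosome 6 from 126101412 to 126166910, has no overlapping annotated gene. *Ntrk2* (ENSMUSG00000055254), on chromosome 13 from 58806569 to 59133970, and *Ntrk3* (ENSMUSG00000059146), on chromosome 7 from 78175959 to 78738012, are overlapped by other genes that share no exonic base with them.

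The difference between the conditions followed the GC content of the transcript across all genes (Spearman correlation 0.58 across 17536 genes of known GC content, which are not independent replicates), and the 6 members span much of that range. GC content of the longest transcript was 40.9% for *Bdnf*, 43.6% for *Ntrk3*, 48.6% for *Ntrk2*, 48.9% for *Ntf3*, 51.0% for *Sort1* and 58.6% for *Ngfr*. When genes were split into 10 equal groups by GC content, the median log2 difference ran from -0.42 in the group of lowest GC content to 0.14 in the group of highest. After a local regression on GC content had been subtracted within each sample, the log2 difference of *Ngfr* was 0.54 and its samples stood at 1052 and 1051 in subjective day, against 1565 and 1489 with morning light. *Bdnf* moved further, to a log2 difference of 0.41, with 127 and 148 in subjective day, against 190 and 175 with morning light, which no longer overlapped. *Ntrk3* moved to 0.36, while *Ntrk2* (0.035), *Sort1* (0.039) and *Ntf3* (-0.12) stayed close to their values without the correction, although the *Sort1* samples then overlapped, at 8566 and 8390 in subjective day, against 9087 and 8347 with morning light. The correction also removes any difference in biology that follows GC content, and the part of GC content in these values was not tested.

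**Figure D3:**
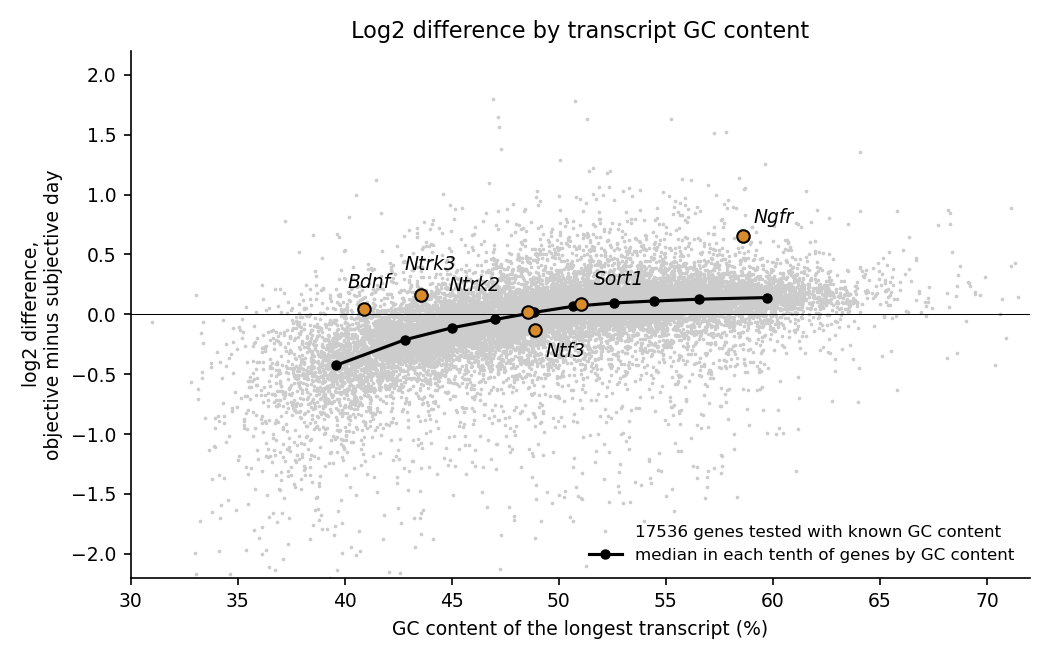
Log2 difference (objective minus subjective day) against GC content of the longest transcript (%) for 17536 genes (grey), the median in each of 10 equal groups of genes by GC content (black line) and the 6 members (orange), with 24 genes beyond the axes. *Ngfr* (0.66), *Bdnf* (0.043) and *Ntrk3* (0.16) lie above the black line at their GC content, *Ntrk2* and *Sort1* lie near it, and *Ntf3* (-0.13) lies below.

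Over the 4 samples, the genes with the profile most like that of *Ngfr* were *Tekt2*, *Sh2d2a*, *Cldn19*, *Fyb* and *Lcn2*, by Euclidean distance between log2 values centred on each gene's mean (0.038 to 0.092, 17783 genes compared). The nearest, *Tekt2*, was at 8.99 and 8.88 in subjective day, against 15.1 and 14.3 with morning light, so it was tested only because its values with morning light reached 10. *Lcn2*, which encodes the siderophore-binding protein lipocalin 2, was at 98.9 and 95.4 in subjective day, against 147 and 145 with morning light. *Sh2d2a*, which encodes an adaptor of T cells, was at 207 and 206 in subjective day, against 326 and 313 with morning light. This likeness is measured on the same samples, and so includes the difference between the conditions. Among the other members, *Ntrk3* was nearest to *Ngfr* (distance 0.55, rank 4393 of the genes compared) and *Ntf3* farthest (0.80, rank 11562).

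The other genes of the neurotrophin pathway were taken from a list of 95 genes with defined roles, of which 93 were tested. Of these, 6 rose and 7 fell in objective day at an adjusted p under 0.05 (limma), and 80 did not pass the test. Over all genes tested, 8.51% passed in either direction, and 25.4% had an unadjusted p under 0.05. The genes that rose made up 6.45% of the list, compared with 1.06% of all genes tested, and those that fell 7.53%, compared with 7.45%. The list was chosen with earlier results of these data known, so these shares describe the list and do not test the pathway. The feedback and target genes *Egr1*, *Fos* and *Vgf* supplied 3 of the 6 that rose. The median log2 difference was 0.079 in the list and 0.015 over all genes. Without the first objective day sample 8 genes of the list passed, and without the second objective day sample 7 passed. *Adam10*, *Camk4*, *Crk*, *Rps6ka2* and *Sorl1* were lost in both cases, and *Creb1* without the second. With a variance prior that does not follow mean expression, 0 genes of the list passed by limma, and 23 had an unadjusted p under 0.05. Under that prior 0 of all 17784 genes tested passed as well, and 3586 had an unadjusted p under 0.05. Calls over all genes also fell without each objective day sample in turn, so these losses were not particular to the list. Several genes of the list are general signalling genes that serve many receptors. In bulk tissue fewer cells of a type and less RNA per cell cannot be told apart.

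*Ntf5* did not pass the test. It was at 17.0 and 14.5 in subjective day, against 10.4 and 11.5 with morning light (log2 difference -0.48, limma adjusted p = 0.466). Its conditions did not overlap, but its values are low.

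Of the sorting receptors related to sortilin, 1 of 4 rose. *Sorl1*, which like sortilin has a VPS10 domain, was at 5059 and 5137 in subjective day, against 6150 and 6096 with morning light (log2 difference 0.26, standard error 0.057, limma adjusted p = 0.0327). By limma 0 of 4 receptor partners, 0 of 10 intracellular partners of p75 and 0 of 9 tested genes of proneurotrophin processing passed the test, while 1, 4 and 1 of them had an unadjusted p under 0.05, beside the 25.4% over all genes. Of the 7 genes that cut p75, *Adam10*, which encodes a protease that sheds receptor ectodomains, fell from 2136 and 1930 to 1607 and 1608 (log2 difference -0.34, standard error 0.070, limma adjusted p = 0.0297), but its log2 difference was -0.053 (limma adjusted p = 0.844) with the GC trend removed. The other 6, among them the subunits of gamma-secretase, did not pass.

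Among the Trk adaptors 1 gene rose and 1 fell, and in the Ras-MAPK branch 1 rose and 2 fell. *Shc3*, a neuronal adaptor that binds activated Trk receptors, rose from 191 and 216 to 394 and 373 (log2 difference 0.91, standard error 0.11, limma adjusted p = 0.00592). *Crk*, another adaptor, fell (log2 difference -0.30, limma adjusted p = 0.027), and 13 of 15 adaptors did not pass. In the Ras-MAPK branch, the kinase gene *Rps6ka2* rose by 0.37 on the log2 scale, from 6797 and 6650 to 8686 and 8709, while its relative *Rps6ka3* fell (log2 difference -0.53), with limma adjusted p of 0.0114 and 0.00774. By limma 0 of 7 PI3K-Akt genes passed, and 3 had an unadjusted p under 0.05, beside 25.4% of all genes. Of the 5 genes of the PLC-gamma branch, the calcium-dependent kinase gene *Camk4* fell (log2 difference -0.42, limma adjusted p = 0.0189).

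Of the 13 feedback and target genes, 3 rose and 2 fell. *Vgf*, a secreted neuropeptide precursor that neurotrophins are known to induce, rose from 584 and 496 to 1459 and 1303 (log2 difference 1.36, standard error 0.10, limma adjusted p = 0.00531). *Egr1* and *Fos*, immediate early genes that answer many stimuli, rose by 2.25 and 0.76 on the log2 scale (limma adjusted p = 0.00531 and 0.00558). *Spred1*, an inhibitor of Ras signalling, fell from 2206 and 2508 to 1422 and 1450 (log2 difference -0.71, limma adjusted p = 0.00558), and *Creb1*, which encodes the factor CREB, fell by 0.45 on the log2 scale (limma adjusted p = 0.0114). The 7 genes of the list that fell had a transcript GC content of at most 48.2%, and the 6 that rose from 50.7% to 64.1%, beside a median of 49.8% over all genes tested. With the GC trend removed, 1.21% of all genes tested passed (0.557% higher and 0.652% lower), and 5 of the 13 genes did, namely *Egr1*, *Vgf*, *Shc3*, *Fos* and *Spred1*, with log2 differences of 2.13, 1.19, 0.81, 0.69 and -0.37. Of the genes that no longer passed, *Camk4* (-0.39), *Rps6ka2* (0.28) and *Sorl1* (0.22) kept most of their log2 difference, with limma adjusted p of 0.0536, 0.0830 and 0.145, and passed when the replicate block was fitted as well. *Rps6ka3* (-0.14), *Crk* (-0.11), *Adam10* (-0.053) and *Creb1* (0.0010) moved closer to 0. With the replicate number as a block, 26 genes of the list passed (11 higher and 15 lower), and 20.3% of all genes tested did (7.21% higher and 13.1% lower).

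**Figure D4:**
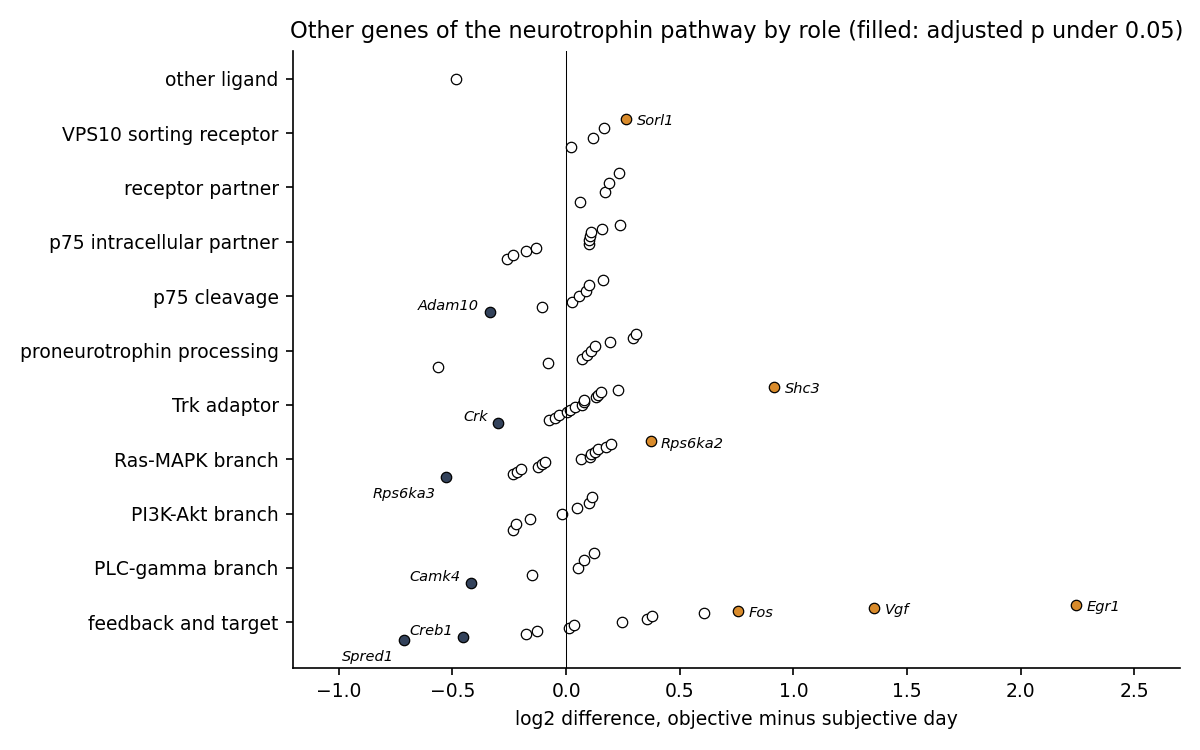
Log2 difference (objective minus subjective day) for the tested genes of the neurotrophin pathway list that are reported here, a point per gene, grouped by role, with filled points for an adjusted p under 0.05 by limma (orange, higher; dark blue, lower) and open points for the rest. The 6 higher genes are led by *Egr1* at 2.25, and the filled points among the sorting receptors and the genes that cut p75 are *Sorl1* (0.26) and *Adam10* (-0.34).

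Marker lists of 12 cell types that the dissected tissue could hold were set beside *Ngfr*. Of 79 marker genes tested, 12 fell and 0 rose in objective day by limma, and 6 of the 12 were in the surface epithelium list. The genes that fell were 15.2% of the markers, compared with 7.45% of all genes tested, while 48 markers had a log2 difference above 0 and 30 an unadjusted p under 0.05, beside 52.6% and 25.4% of all genes. The Müller glia list summed to 171267 and 154641 in subjective day, against 167596 and 156372 with morning light, and 2 of its 8 genes, *Slc1a3* and *Aqp4*, fell by limma. With the GC trend removed neither passed, the log2 difference of *Slc1a3* going from -0.34 to -0.23 and that of *Aqp4* from -0.44 to -0.10 (limma adjusted p = 0.134 and 0.559). Its most abundant genes, *Glul* and *Apoe*, differed by -0.068 and 0.20 on the log2 scale (limma adjusted p = 0.725 and 0.406). The Schwann cell list summed to 3770 and 5358 in subjective day, against 4087 and 3714 with morning light, and 0 of its 8 genes passed the test by limma, with 2 at an unadjusted p under 0.05. *Mbp*, its most abundant gene, was at 1267 and 2684 in subjective day, against 1306 and 1367 with morning light. The surface epithelium list fell in objective day, in 6 of 7 tested genes, from sums of 10993 and 11458 to 3230 and 5827, opposite in direction to *Ngfr*. Its most abundant genes, *Krt15* and *Krt5*, fell, with log2 differences of -1.46 and -1.44 (limma adjusted p = 0.0174 and 0.0165), whereas the corneal keratin *Krt12* was between 1.78 and 12.5 in all samples.

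The melanocyte list was the only list whose sum was higher in both objective day samples than in both subjective day samples, at 15730 and 14300 in subjective day, against 19394 and 15879 with morning light. The ratio of its means was 1.17, compared with 1.58 for *Ngfr*. By limma 0 of its 6 genes passed the test without a correction, and 3 had an unadjusted p under 0.05, beside 25.4% of all genes. After removal of the GC trend 2 of the 6 passed, both higher, beside 0.557% higher over all genes tested. They were *Dct*, whose log2 difference went from 0.38 to 0.73, and *Tyr*, from -0.15 to 0.65 (limma adjusted p = 0.0210 and 0.0394). The log2 difference of *Ngfr* was 0.54 under the same correction. The retinal ganglion cell list, at 29028 and 24712 in subjective day, against 30111 and 28024 with morning light, overlapped between the conditions, with 0 of 8 genes past the test by limma and 3 at an unadjusted p under 0.05. The retinal astrocyte list was lower in both objective day samples, at 3832 and 3500 compared with 4191 and 4111, with *Gfap* the 1 gene of 4 that fell. No marker list had a gene at 0 in every sample. The part of cell composition in the values of *Ngfr* was not tested.

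**Figure D5:**
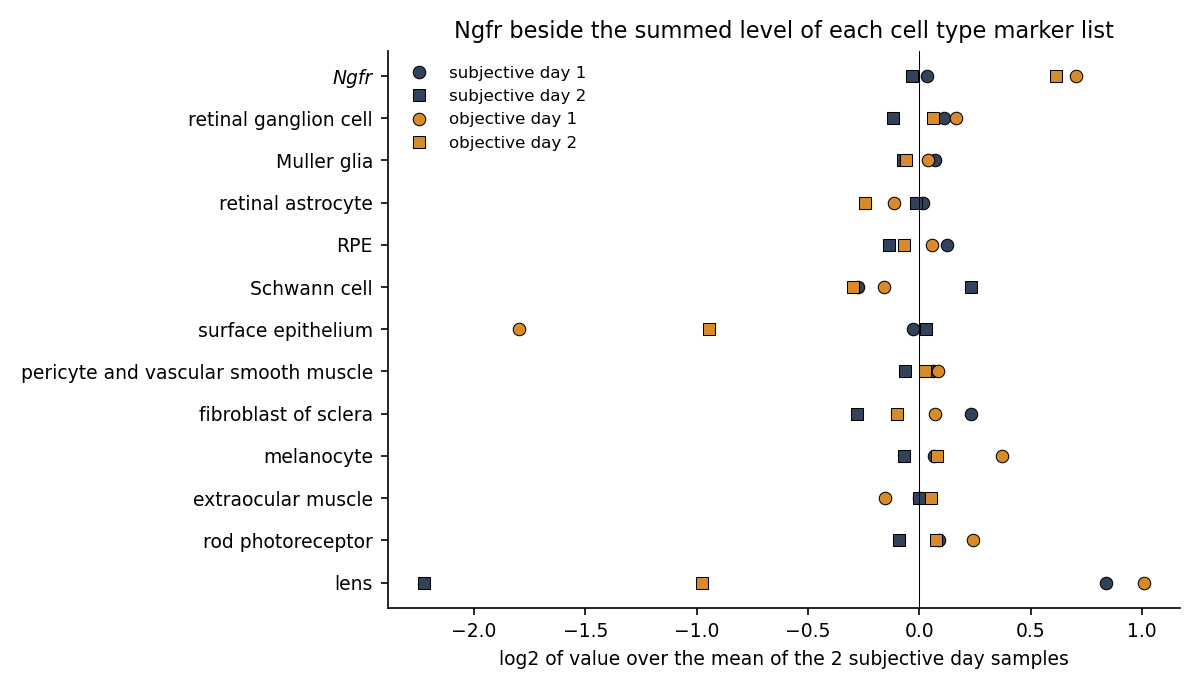
*Ngfr* (top row) and the summed level of each of 12 marker lists, as log2 of the value over the mean of the 2 subjective day samples, with a point per sample (dark blue, subjective day; orange, objective day; circle, replicate 1; square, replicate 2). The surface epithelium list lies to the left in objective day, the lens list separates replicate 1 from replicate 2, and the other lists stay closer to 0 than *Ngfr* does in objective day.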

How the data were processed

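The authors used TopHat2 2.0.9 with Bowtie2 2.1.0 for alignment to an Ensembl mouse release, HTSeq for counting per gene and edgeR for the comparison. They deposited a signal per gene and sample, namely adjusted counts with decimals and nearly equal totals, a form taken from the values to be counts equalized to a common library size. The table also holds the authors' own fold changes and p-values, which were not used.

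Values were compared on log2(value + 1) with limma 3.58.1 in R 4.3.3, keeping genes that reached 10 in no fewer than 2 samples, with a variance prior that follows mean expression and Benjamini-Hochberg adjustment over all 17784 genes at 0.05. The labels number the samples 1 and 2 in each condition and do not say that equal numbers were processed together. P-values set a difference against the spread between pooled samples, after each gene's variance is drawn toward that of genes of similar level. With 2 samples per condition they therefore also rest on the variance of other genes.

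Exon length, GC content and positions came from GENCODE M21 (GRCm38). GC content was known for 98.6% of genes tested, and its trend was removed with a local regression span of 0.3. The 6 members, the pathway list and the marker lists were chosen with earlier results of these data known. *Rlbp1* is in both the Müller glia and RPE lists, and *Egr2* in the Schwann cell and pathway lists. Genes named are the members, the pathway genes with an adjusted p under 0.05, *Ntf5*, the 5 genes nearest to *Ngfr*, and the 2 most abundant genes of a marker list described; other marker genes were picked with their values in view. *Plg* was below the filter, and *Mmp7* was not analysed here. Some genes are counted in the pathway list but not reported here. Alternatives covered scaling (TMM and median-of-ratios factors, coded by hand), filter, pseudocount, variance prior, GC trend, replicate block and each sample left out. The method was tested on simulated data, where changed genes with low values were recovered less often. Figures were drawn with matplotlib 3.10.9.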

Additional observations from a re-analysis of the deposited data

How the results depend on the processing

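The log2 difference of *Ngfr* ran from 0.61 to 0.70 with each sample left out, that of *Bdnf* from -0.11 to 0.20, *Ntf3* from -0.25 to -0.022, *Ntrk2* from -0.013 to 0.049, *Ntrk3* from 0.031 to 0.29 and *Sort1* from 0.034 to 0.14. Removal of the GC trend gave 0.54 for *Ngfr*, 0.41 for *Bdnf* and 0.36 for *Ntrk3*, the same with the replicate block. TMM and median-of-ratios scaling and pseudocounts of 0.5 and 5 moved no member by more than its SD between replicates. Over all genes, limma called 1514 (1325 lower, 189 higher), and 215 (116 lower, 99 higher) with the GC trend removed; higher genes made up 12.5% and 46% of these. Samples with the same number deviated together (correlation 0.319 across genes); with the number as a replicate block limma called 3613 (2331 lower, 1282 higher), and with the block and the GC trend removed 717 lower and 889 higher. Leaving out each sample gave 664 to 2557 calls (604 to 1691 lower, 36 to 866 higher). In the pathway list the 13 calls (7 lower, 6 higher) became 5 (1 lower) with the GC trend removed, 26 (15 lower, 11 higher) with the block, 2 lower and 10 higher with both, and 7 to 16 (3 to 9 lower, 4 to 7 higher) with each sample left out. All 13 were called with the block and without either subjective day sample, but 8 without the first objective day sample and 7 without the second (*Adam10*, *Camk4*, *Crk*, *Rps6ka2* and *Sorl1* were lost in both, *Creb1* in the latter). With a variance prior without a trend, limma called 0 genes in all (0 lower, 0 higher; 3586 had an unadjusted p under 0.05) and 0 in the list (0 lower, 0 higher; 23 unadjusted). The cause was not tested. Where a condition was left with 1 sample, that sample was assumed to vary like the others. Low adjusted counts, under 50 for *Ntf3* and *Ntf5*, limit precision, and depth limits were not compared between genes.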
